A study of Mus musculus with 10 samples.

Results

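A set of 1589 RAD23B regions lay at the promoters of protein-coding genes with little or no RNA in wild-type mouse embryonic stem cells. They were taken from the 59768 regions listed for the first of 2 RAD23B chromatin immunoprecipitation sequencing (ChIP-seq) replicates. Members were selected on measured values, which are not results here. A region was kept if it overlapped a region of replicate 2 and its ratio of RAD23B reads + 1 to IgG reads + 1 in replicate 1 was under 4. It also had to lie within 1 kb of the start of a protein-coding gene with a wild-type RPKM (RNA reads scaled to gene length and sequencing depth) under 1, and not within 1 kb of the start of any gene above 1. These genes are called silent here, a name that rests on 1 RNA library. The members made up 2.66% of the replicate 1 list and 4.09% of the 38822 regions shared by both replicates, and 65% of the replicate 1 list was shared (38822 of 59768).

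RAD23B was immunoprecipitated with affinity-purified guinea pig antibodies raised against a peptide of the mouse protein, in 2 libraries from wild-type cells of the D3 embryonic stem cell line, each set against normal guinea pig IgG. A single RAD23B library and a single IgG library came from Xpc-/- embryonic stem cells, whose line is not named. The RNA libraries came from another line, JM8.N4, so a gene silent there was not measured in the D3 cells that gave the regions. They were 1 library each of Rad23b-/- cells, Rad23b-/- cells with Xpc knocked down by a first short hairpin RNA (Rad23b-/-Xpc KD1), the same cells with a second hairpin (Rad23b-/-Xpc KD2), and wild-type cells. Both knockdowns therefore also lack Rad23b, and the labels do not say how many clones the Rad23b-/- cells represent. In the RNA libraries Rad23b stood at 43.9, 35.8 and 52.5 RPKM in Rad23b-/-, KD1 and KD2 cells, against 229 in wild-type cells, and Xpc stood at 8.34, 0.915 and 0.895 RPKM, against 8.73. All 10 embryonic stem cell markers examined were above 1 RPKM in wild-type cells (44.6 to 2040). These markers did not move together. Nanog, Esrrb, Pou5f1, Sox2 and Utf1 were lower in each mutant library, and Tdgf1 was higher in each. Zfp42, Dppa4, Dppa5a and Fgf4 went both ways. Summed over the 10, RPKM was 4483, 6247 and 5239 in Rad23b-/-, KD1 and KD2 cells, against 6122 in wild-type cells. Nanog had 197, 243 and 209 RPKM in Rad23b-/-, KD1 and KD2 cells, against 512 in wild-type cells, and Esrrb 51.5, 77.0 and 60.2, against 162. Summed germ cell markers were 142, 127 and 122 RPKM, against 92.5, and summed primitive endoderm markers 8.47, 7.69 and 7.66, against 5.95. In these lists Ddx4, Mael, Tex101, Gata4, Sox7 and Sox17 were higher in each mutant library. Gata6 and Dab2 were lower in each, and Dazl, Sycp3 and Foxa2 went both ways. Summed neural markers were lower (39.03, 38.02 and 37.42, against 55.54), with Tubb3 lower but Pax6 and Neurod1 higher in each mutant library. Summed mesoderm markers were 13.7, 16.4 and 11.3, against 15.5. Of 10 markers of fibroblasts, often used as feeder cells, 2 reached 1 RPKM in wild-type cells, with Postn and Lum at 0. The summed RPKM of these 10 was 9.05, 8.64 and 8.48 in Rad23b-/-, KD1 and KD2 cells, against 4.95 in wild-type cells. Most of the difference was Twist1 (4.41, 5.00 and 4.82, against 1.75), while Col1a2 and Col3a1 were lower in the mutants. The part of these shifts in the values of the marked genes was not tested.

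RAD23B is a partner of XPC in the complex that recognises damaged DNA for nucleotide excision repair, and it also carries ubiquitinated proteins to the proteasome. The XPC complex has been described as a coactivator for OCT4 and SOX2 in embryonic stem cells. Promoters of developmental regulators in these cells are typically rich in CpG dinucleotides and marked by Polycomb proteins while their genes stay off, whereas many tissue-specific genes, such as odorant receptors, have CpG-poor promoters.

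CpG-rich and CpG-poor promoters were both found among the genes at these regions, and Polycomb marks were not measured. The sequences below, from RefSeq on GRCm38.p6, run from 250 bases before to 50 bases after the annotated start on the strand of the gene. They are the most and the least CpG-rich among the promoters of 50 of the 124 named genes, those compared here, and capitals mark each CpG dinucleotide. The regions themselves are in mm9 coordinates and were not placed on these windows. The Wnt9a and Wnt4 regions do not cover the listed start, with centres 1213.5 bp downstream and 400.5 bp upstream of it.

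Wnt9a: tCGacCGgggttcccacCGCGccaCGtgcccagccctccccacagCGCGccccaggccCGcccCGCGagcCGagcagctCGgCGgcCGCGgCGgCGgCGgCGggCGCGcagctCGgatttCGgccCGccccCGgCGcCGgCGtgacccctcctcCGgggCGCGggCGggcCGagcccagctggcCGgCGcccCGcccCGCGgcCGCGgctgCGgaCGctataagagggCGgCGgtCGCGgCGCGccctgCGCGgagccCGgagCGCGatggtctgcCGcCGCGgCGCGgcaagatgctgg
Wnt4: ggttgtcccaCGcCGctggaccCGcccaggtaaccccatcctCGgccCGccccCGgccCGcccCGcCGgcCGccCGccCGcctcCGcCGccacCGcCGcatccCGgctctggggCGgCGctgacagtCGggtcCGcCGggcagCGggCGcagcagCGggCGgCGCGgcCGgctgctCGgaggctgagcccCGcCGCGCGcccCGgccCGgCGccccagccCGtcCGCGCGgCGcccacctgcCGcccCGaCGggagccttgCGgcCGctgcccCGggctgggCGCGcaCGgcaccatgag
Olfr95: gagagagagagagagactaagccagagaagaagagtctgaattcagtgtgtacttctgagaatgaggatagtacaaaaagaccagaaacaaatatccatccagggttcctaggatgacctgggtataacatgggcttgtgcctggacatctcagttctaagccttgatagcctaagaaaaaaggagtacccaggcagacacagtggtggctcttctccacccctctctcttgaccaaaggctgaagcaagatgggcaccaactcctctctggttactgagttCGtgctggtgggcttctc
Vmn1r90: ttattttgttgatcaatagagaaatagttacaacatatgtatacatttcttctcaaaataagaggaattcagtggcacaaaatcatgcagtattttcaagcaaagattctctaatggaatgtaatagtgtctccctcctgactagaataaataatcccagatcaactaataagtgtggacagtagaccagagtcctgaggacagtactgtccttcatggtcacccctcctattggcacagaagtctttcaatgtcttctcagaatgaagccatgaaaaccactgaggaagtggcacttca

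The promoters of Wnt9a (chr11:59306680-59306979, plus strand) and Wnt4 (chr4:137277385-137277684, plus strand), both encoding secreted WNT ligands, held 58 and 51 CpG dinucleotides. Those of Olfr95 (chr17:37211802-37212101, minus strand), an olfactory receptor gene, and Vmn1r90 (chr7:14562122-14562421, minus strand), a vomeronasal receptor gene, held 1 and 0. The listed mm9 locus of Vmn1r90 is long (chr7:15116002-15208415), and its region lies at the far end (15208185-15208997). Whether the printed Vmn1r90 window is the start beside that region was not tested. The median over 27025 promoters was 7, with quartiles of 3 and 20. The letters GGGCGG, searched on both strands, stood 5 times in the Wnt9a window and 8 times in that of Wnt4, and 35.9% of all promoters held them at least once. They were absent from the other two windows. CCAAT was found in the Vmn1r90 window alone of these 4 (38% of all promoters hold it), and TATAAA in none of them (14.2%). Promoters were found for 1047 of the 1499 genes at the regions (69.8%), under the 80% needed to describe the set, so no CpG content is given for the whole set.

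The regions were weakly enriched. In replicate 1 they held a median of 174 RAD23B reads against 93 IgG reads, over a median width of 602 bp. In replicate 2 the medians were 77 RAD23B and 40 IgG reads. The authors' scaled fold, which is theirs and was used only to describe and rank regions, had a median of 1.73 in replicate 1 (1.19 to 3.75) and 1.92 in replicate 2 (1.28 to 5.18). The replicate 1 values follow from the limit that chose the regions. In replicate 2, 888 of the 1589 were under 2-fold, 344 reached 2-fold in both replicates and 27 reached 3-fold in both, while 77 were under 1.5-fold in both. Across the 1589 regions the folds of the replicates had a Spearman correlation of 0.70, against 0.83 across all 38822 shared regions; the ratio limit narrows the range of the members, and regions share their libraries.

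**Figure D1:**
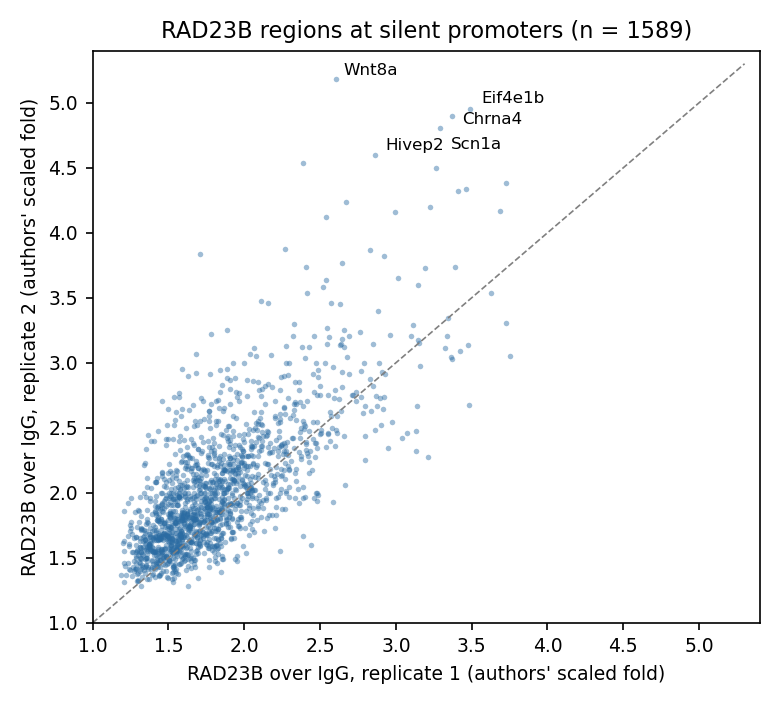
Authors' scaled fold of RAD23B over IgG in replicate 2 (vertical) against replicate 1 (horizontal) for each of the 1589 regions; the dashed line marks equal folds and the 5 regions with the highest replicate 2 fold are named. Most points lie under 2-fold in replicate 1 (1192 regions), and the named regions lie above the line, between 4.60 and 5.18 in replicate 2.

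The highest fold in replicate 2 was at Wnt8a (chr18:34701406-34701999), which encodes a WNT ligand of the early embryo. In replicate 1, 220 reads of the RAD23B library fell in this region, against 80 of the IgG library; in replicate 2 it was 113 against 21. The unscaled read ratio was 2.75 (exact 95% interval 2.12 to 3.60) in replicate 1 and 5.38 (3.36 to 9.03) in replicate 2. These intervals cover counting error only, since reads copied by PCR are not independent molecules. Folds of 4.95 and 4.90 were found at Eif4e1b (chr13:54884489-54885081), an oocyte form of the cap-binding factor eIF4E, and at Chrna4 (chr2:180776687-180777335), a nicotinic acetylcholine receptor subunit. Their read ratios in replicate 2 had overlapping intervals, 3.10 to 9.10 at Eif4e1b and 3.06 to 9.0 at Chrna4. The order among these regions is therefore not resolved by the reads.

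The next regions lay at Scn1a, a neuronal sodium channel (4.80), at Hivep2, a zinc finger factor (4.60), and at Sypl2, a synaptophysin-like membrane protein (4.54). They were followed by Setbp1, which encodes a SET-binding protein (4.50), Tmem156 (4.39) and Zeb2, a zinc finger repressor that acts in neural crest and neurons (4.34). The remaining 6 of the first 15 were at 6330407J23Rik (4.32), Rerg, a RAS-like growth inhibitor (4.24), Clec2d, a ligand of natural killer cell receptors (4.20), Bcl11b, a T-cell and neuronal zinc finger factor (4.17), Wdr27 (4.16) and 5330437I02Rik (4.12). At the low end, 2 adjacent regions at Sox30, a testis SOX factor, overlapped the same replicate 2 region at 1.28-fold. H2-Q7, a non-classical MHC class I gene, and Trim7 each had 1.31-fold, and Zpbp2, a zona pellucida binding protein of sperm, had 1.32-fold. The H2-Q7 region (chr17:35575433-35577646) had 488 reads of RAD23B against 372 of IgG in replicate 2 (ratio 1.31, interval 1.14 to 1.51), so a large read count went with a small excess.

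The ratio limit of 4 removed only 16 regions that met the other criteria. Just inside it were regions at Zfp521 (ratio 3.93), Gm16253 (3.91), Tmem156 (3.90) and Bcl11b (3.86). Just outside were Gm10134 (4), Gm17448 (4.03), Meis2, a homeobox factor (4.04), and A930018P22Rik (4.05). The genes nearest below the RNA limit were Ncan (0.997 RPKM), Pkia (0.996) and Fbxo47 (0.996), and the nearest above it were Rel (1.00), Cuedc1 (1.00) and BC068157 (1.01).

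Compared with 8461 shared regions at active promoters under the same ratio limit, the silent-promoter regions were narrower and held fewer reads of both libraries. Median width was 602 bp at silent and 784 bp at active promoters. Median RAD23B reads in replicate 1 were 174 at silent and 256 at active promoters, and median IgG reads 93 and 134. Per kilobase, RAD23B reads were 272 at silent, 312 at active promoters and 277 at the other 28772 shared regions; IgG reads were 152, 166 and 132 in the same order. Median replicate 2 folds were 1.92, 1.88 and 2.28. The other shared regions had no ratio limit, and their replicate 1 read ratios ran up to 10.8. The higher IgG density and lower fold at silent promoters are therefore not like for like with those regions, since the limit uses the same reads. The part of IgG signal in these regions was not tested. Regions of 1 cell line are not replicates, and these differences carry no test.

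Silent-promoter regions also lay farther from the gene start. Of 1153 regions assigned to a silent gene with listed coordinates of its own, 731 (63.4%) covered the start, 174 (15.1%) lay upstream and 248 (21.5%) downstream. At active promoters 4740 of 5858 regions (80.9%) covered the start, 456 (7.78%) lay upstream and 662 (11.3%) downstream. Quartiles of the region centres ran from −129 to 288 bp at silent genes and from −90.9 to 176 bp at active genes. The active regions were wider, which by itself makes covering the start more likely. Silent regions upstream of the start had a median replicate 2 fold of 2.07, against 1.89 for those covering it and 1.87 for those downstream, and 8.62%, 3.69% and 7.26% of them reached 3-fold. Active-promoter regions did likewise, with medians of 2.04, 1.85 and 1.91 and 12.1%, 2.13% and 4.38% at 3-fold.

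**Figure D2:**
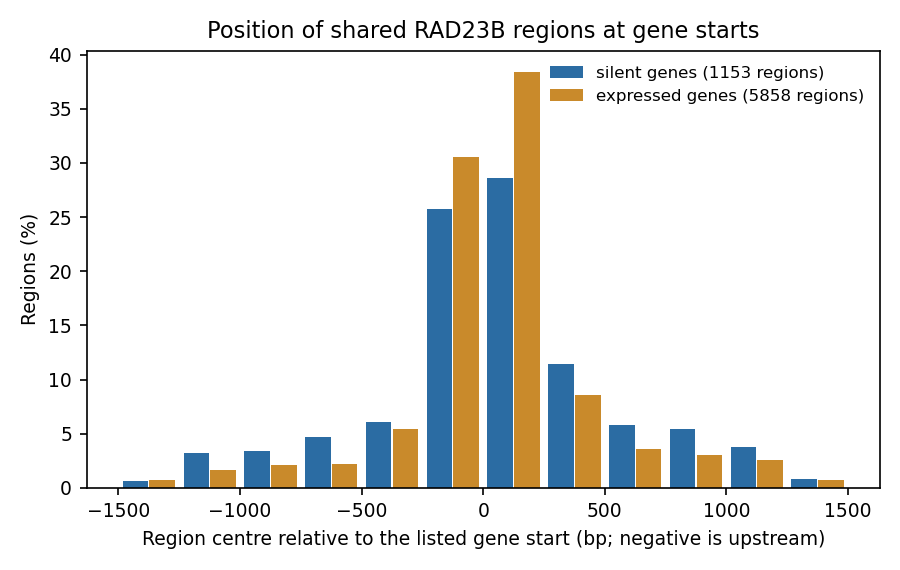
Share of regions (%) by distance of the region centre from the listed gene start (bp, negative upstream) for silent genes (1153 regions) and active, or expressed, genes (5858 regions) with listed coordinates of their own. Both peak at the start, and the silent-gene distribution has the larger share beyond 500 bp on either side.

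The 1589 regions marked 1499 silent genes, 14.3% of the 10513 silent protein-coding genes measured. At 1529 regions there was 1 silent gene within 1 kb, at 51 there were 2, and at 9 there were more. Of the genes, 1341 had 1 region, 149 had 2 and 9 had 3 or more, among them Hoxb9 and Htr2b. The deposited tables give 440 of the 1499 genes the same coordinates as another gene, so for these the start is that of a merged locus. An expressed gene had its start within 5 kb of 101 regions (6.36%), and 99 regions (6.23%) overlapped the locus of one.

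Few of the marked genes were without any RNA. In wild-type cells 126 of 1499 (8.41%) were at 0 RPKM, against 54.05% of the 8679 silent genes with no shared region near the start. The median RPKM of the marked genes was 0.201 (quartiles 0.0513 and 0.479), against 0 for the others. Among genes with coordinates of their own, the share with such a region was 2.08% at 0 RPKM (86 of 4137, exact 95% interval 1.67 to 2.56), 12.4% between 0 and 0.05, 28.2% between 0.1 and 0.2 and 47.2% between 0.7 and 1 (145 of 307, 41.5 to 53.0). Counting any shared region, the share went on to 51.8% between 0.7 and 1, 60.3% between 1 and 3 and 82.4% above 30 RPKM. The share rose with RNA level, while the median replicate 2 fold did not, within the range left by the ratio limit. It was 2.10 in genes at 0 and 1.93 between 0.7 and 1. Gene length and family differed too. The median listed locus was 2.39 kb at 0 RPKM, 11.3 kb between 0 and 0.05 and 13.2 kb between 0.7 and 1. Of all 4889 silent genes at 0, 1335 were olfactory or vomeronasal receptor genes. The part of length and family in the shares was not tested.

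**Figure D3:**
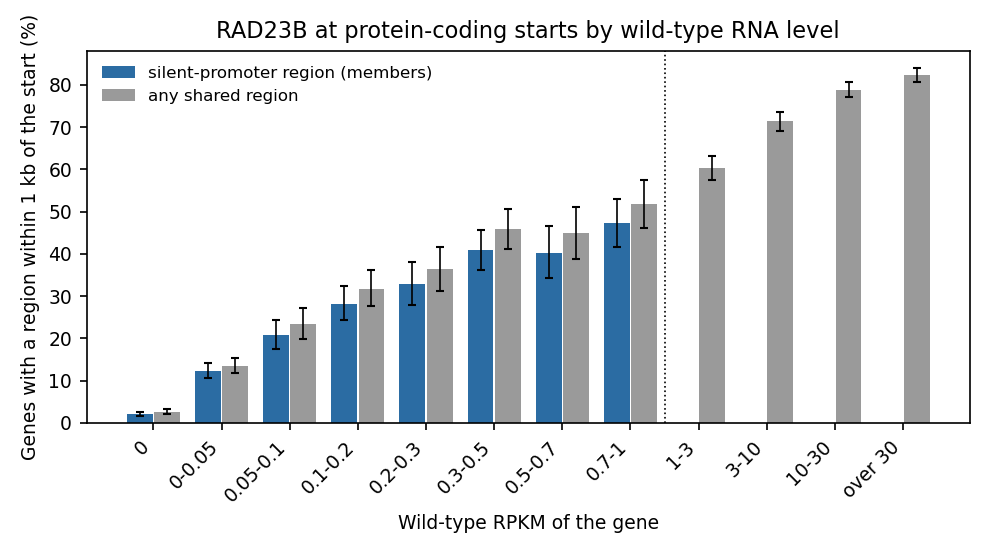
Share (%) of protein-coding genes with coordinates of their own that had a region within 1 kb of the start, by wild-type RPKM; blue bars count the silent-promoter regions and grey bars any region shared by both replicates, with exact 95% intervals for counting error. The shares climb from 2.08% at 0 RPKM to 47.2% just under 1 RPKM (blue), and the grey bars reach 82.4% above 30 RPKM; the dotted line is the limit of 1 RPKM.

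By chromosome, silent genes on the X were nearly free of these regions. Only 2 of 509 silent X-linked genes (0.393%, interval 0.0476 to 1.41) had one, Klhl34, a kelch-like gene, and Slc9a7, a sodium-proton exchanger; the 2 were named after their values were seen. The lowest autosome was chromosome 7 at 10.1% (112 of 1113), and the highest were 15 at 28.7% (92 of 321) and 8 at 24.5% (101 of 412). The same order held for expressed genes with any shared region at the ends of the range: 18.6% on the X (74 of 398), 82.7% on 15 and 79.4% on 8. IgG reads moved with it. In the shared regions of replicate 1 the IgG density was 82.5 reads per kilobase on the X, 163 on 15 and 168 on 8, against 131 to 149 on the other autosomes, and the median fold was 2.90 on the X, 1.75 on 15 and 1.71 on 8. The part of this difference in read density in the number of regions was not tested.

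Among gene groups, Hox genes were marked most often and olfactory and vomeronasal receptors rarely. The groups below are read against the background of 14.3% of all silent genes, or 24.4% of those with an RPKM above 0 (1373 of 5624). Of the 34 Hox genes, which set position along the body axis, all were silent and 19 were marked (55.9%, exact interval 37.9 to 72.8). Because Hoxa2, Hoxa4, Hoxa5, Hoxa6 and Hoxa7 share 1 listed start and Hoxc10, Hoxc9, Hoxc8 and Hoxc6 another, the 19 stood for 12 loci; with coordinates of their own 10 of 17 were marked. The strongest was at Hoxd10 (chr2:74516960-74517571), with 165 reads of RAD23B against 63 of IgG in replicate 1, 68 against 22 in replicate 2, and folds of 2.47 and 3.0. Hoxc11 had 2.87-fold and Hoxb9, with 3 regions, 2.70-fold in replicate 2.

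Other transcription factors followed at lower shares, nearer the background. Of 137 other silent homeobox genes 36 were marked (26.3%), among them Pax2 (3.58-fold in replicate 2), a regulator of kidney and midbrain, Rax (3.45), needed for the eye, Lhx4 (3.05), a pituitary and motor neuron factor, Emx1 (3.03), a factor of the forebrain cortex, and Isl1 (2.88), a factor of heart and motor neuron precursors. Of 47 basic helix-loop-helix genes 12 were marked (25.5%, interval 13.9 to 40.3), led by Hand1 (3.22), a factor of trophoblast and heart, and Hes3 (2.74), a Notch-related repressor. Of 51 SOX, FOX, GATA and T-box genes 12 were marked (23.5%, interval 12.8 to 37.5), with Foxd2 at 2.50, Foxf2 at 2.46 and Tbx2, a repressor of heart and limb development, at 2.35. Zinc finger genes with a Zfp name were marked at 20 of 60 (33.3%), with Zfp503 at 3.26. Among genes above 0 RPKM, the shares were 57.7% for Hox, 29.2% for other homeobox, 31.2% for basic helix-loop-helix and 20.5% for SOX, FOX, GATA and T-box genes, against 24.4% of all silent genes above 0.

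Secreted ligands and the machinery of neurons were also marked. Of 68 silent WNT, FGF, BMP and hedgehog ligand and antagonist genes 23 (33.8%) had a region; besides Wnt8a these included Gdf6, a BMP-family ligand of joints and eye (3.54), Fgf9 (2.83), Wnt9a (2.74), Dkk2, a WNT antagonist (2.41), and Wnt4 (2.30). Potassium, sodium and calcium channel genes were marked at 38 of 127 (29.9%), with Kcnk15 at 2.78 and Kcna4 at 2.70. Neurotransmitter receptor genes were marked at 38 of 113 (33.6%), with Oprk1, the kappa opioid receptor, at 3.14, Adra1d at 3.11, Chrnd at 2.85, Htr2b, a serotonin receptor, at 2.67 and Gabra5, a GABA-A receptor subunit, at 2.61. Above 0 RPKM the shares of these 3 groups were 35%, 33.7% and 40.3%. Solute carriers stood at 36 of 176 (20.5%) and cadherins and protocadherins at 7 of 52 (13.5%).

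Olfactory, keratin and cytokine groups had intervals below the 14.3% background. Cytokine, chemokine and receptor genes were marked at 17 of 226 (7.52%, interval 4.44 to 11.8), with Cd80, a costimulatory molecule, at 3.77. Cytochrome P450 genes stood at 7 of 82 (8.54%, interval 3.50 to 16.8) and germline genes at 10 of 118 (8.47%, interval 4.14 to 15), with Spo11, which makes meiotic DNA breaks, at 1.96; both intervals include the background. One of 88 keratin genes was marked, Krt222 (1.14%, interval 0.0288 to 6.17). Among 1403 olfactory and vomeronasal receptor genes there were 4 (0.285%, interval 0.0777 to 0.728): Vmn2r12, Vmn1r90, Olfr94 and Olfr95, of which Olfr95 was at 0 RPKM in all 4 libraries. Of those 1403 genes, 1335 were at 0 in wild-type cells, and of the 68 above 0 the marked share was 4.41%. None of 24 genes of the 2-cell embryo was marked, which allows up to 14.2%. These differences in RNA level between groups go with the shares, and their part was not tested.

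**Figure D4:**
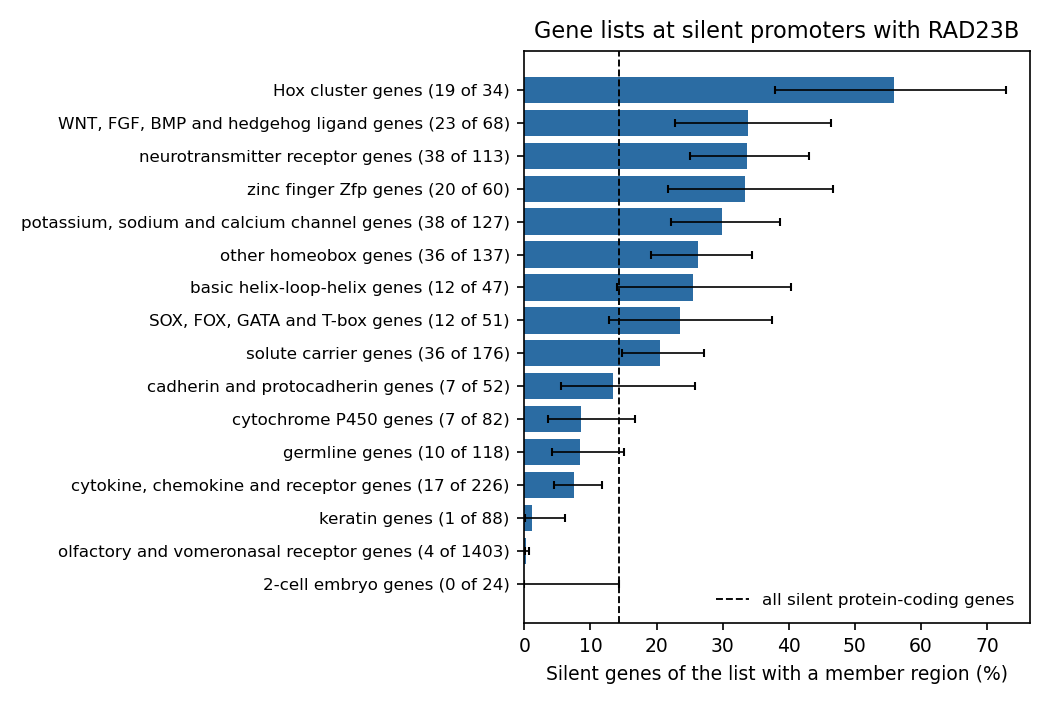
Share (%) of the silent genes of each list with a region within 1 kb of the start (bars; marked and silent genes in brackets) with exact 95% intervals for counting error; the dashed line is the share among all silent protein-coding genes. Hox genes stand at 55.9%, and olfactory and vomeronasal receptors at 0.285%; genes that share a start were counted one by one.

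In Rad23b-/- cells, with or without Xpc knockdown, most marked genes had a slightly higher RPKM than in wild-type cells. The median RPKM of the 1499 genes was 0.334 in Rad23b-/- cells, against 0.201 in wild-type cells. It was 0.301 in KD1 and 0.299 in KD2 cells, against 0.195 and 0.197 for the same wild-type library as scaled with each knockdown. The scale of the libraries differed: expressed genes had a median ratio of mutant to wild-type RPKM of 0.873, 0.881 and 0.887 in Rad23b-/-, KD1 and KD2 cells. A higher value than in wild type was found in Rad23b-/- cells for 1085 genes (72.4%), against 45.1% of all silent genes. The count was 1018 in KD1 cells (67.9%, against 42.4%) and 1039 in KD2 cells (69.3%, against 42.8%). Far more of all silent genes had equal values in both libraries, which cannot count as higher. In Rad23b-/- cells 53 of 1499 marked and 3818 of 10513 silent genes were equal. The numbers were 71 and 4016 in KD1 cells, and 64 and 3951 in KD2 cells. The wild-type value chose these genes for being low, all mutant libraries are set against that same library, and each group has 1 library, so these counts are descriptions with no test. Bulk RNA cannot tell more cells that express a gene from more RNA in each cell.

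How far marked genes stood from other silent genes depended on the wild-type level at which they were compared. At 0 RPKM in wild-type cells, 57.9% of 126 marked genes were higher in Rad23b-/- cells, against 20.5% of 4691 silent genes with no shared region; the shares were 43.7% and 16.8% in KD1 cells, and 49.2% and 18% in KD2 cells. From 0 RPKM any value above 0 counts as higher, and marked and other genes were not matched for length or family. Above 0 the shares were closer. In Rad23b-/- cells they were 72.7% of marked genes and 60.3% of the others between 0 and 0.1 RPKM, 74.9% and 66.2% between 0.1 and 0.3, 71.7% and 62.3% between 0.3 and 0.5, and 75% and 62.0% between 0.5 and 1. In each of these 4 ranges the marked share was the higher one in KD1 and KD2 cells too, with 68.9% against 64.0% in KD1 and 68.3% against 61.8% in KD2 cells between 0.5 and 1 RPKM.

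A level of 1 RPKM was reached by 251 marked genes in Rad23b-/- cells (16.7%, against 6.13% of all silent genes), by 200 in KD1 cells (13.3%, against 4.96%) and by 211 in KD2 cells (14.1%, against 5.12%). Within ranges of wild-type level these shares were closer and not always in that order. The ranges did not make the levels equal. Between 0.5 and 1 RPKM the wild-type median was 0.735 in marked genes and 0.706 in genes with no region. In that range the shares were 52.5% of marked genes and 45.3% of genes with no region in Rad23b-/- cells. They were 45% and 39.2% in KD1 cells, and 46.9% and 38.8% in KD2 cells. Between 0.3 and 0.5 RPKM they were 19.6% and 15.8% in Rad23b-/- cells, 10% and 11.1% in KD1 cells, and 11.7% and 12.7% in KD2 cells. Between 0.1 and 0.3 RPKM they were 4.64% and 4.30%, 4.10% and 3.39%, and 3.83% and 3.85% in Rad23b-/-, KD1 and KD2 cells. Of the 417 marked genes above 0 and up to 0.1 RPKM, none reached 1 RPKM in Rad23b-/- or KD1 cells and 1 did in KD2 cells.

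The number of large differences depended on the scale. On that of RPKM + 1, which understates the change of low genes, 39 marked genes were at least 2-fold higher in Rad23b-/- than in wild-type cells (2.60%, against 1.41% of all silent genes). The count was 25 in KD1 cells (1.67%, against 0.961%) and 23 in KD2 cells (1.53%, against 0.866%). With 0.1 added in place of 1, the counts were 354 (23.6%, against 11.7%), 273 (18.2%, against 9.30%) and 288 (19.2%, against 9.29%) in Rad23b-/-, KD1 and KD2 cells. With 1 added, no marked gene was 2-fold lower in any of the 3, which a start below 1 RPKM does not allow on this scale. The authors' deposited table gave p-values from 1 library a group, with no adjustment stated. In Rad23b-/- cells 70 marked genes had a p under 0.05 (4.67%, against 2.57% of all silent and 2.34% of all protein-coding genes). The counts were 64 in KD1 (4.27%, against 2.29% and 2.3%) and 77 in KD2 cells (5.14%, against 2.64% and 2.41%).

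Among the genes named for high mutant values, 2410137M14Rik had 6.19, 5.91 and 8.51 RPKM in Rad23b-/-, KD1 and KD2 cells, against 0.738 in wild-type cells. Hand1 had 3.31, 3.48 and 1.70 RPKM in the mutants, against 0.329 in wild-type cells. Hsf4, a heat shock factor of the lens, had 4.61, 3.24 and 3.40 RPKM, against 0.709 in wild-type cells. All 3 genes were above their wild-type value in every mutant library.

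Artn, a neurotrophic ligand, had 3.53, 4.35 and 4.18 RPKM in Rad23b-/-, KD1 and KD2 cells, against 0.755 in wild-type cells. Mlkl, the effector of necroptosis, had 3.53, 2.11 and 2.17 RPKM, against 0.494. Cd80 had 2.70, 4.54 and 3.09 RPKM, against 0.639. Cbx8, a Polycomb subunit, did not vary evenly: it had 12.7 RPKM in Rad23b-/- and 26.1 in KD2 cells but 1.16 in KD1 cells, against 0.858 in wild-type cells. The authors' deposited table gave Cbx8 p-values of 0.745, 0.789 and 0.419, and Hand1 0.001, 0 and 0.016. These genes were chosen for their high mutant values.

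The 10 marked Hox genes with coordinates of their own differed in level. Hoxd1 had 1.71, 1.76 and 1.44 RPKM in Rad23b-/-, KD1 and KD2 cells, against 0.179 in wild-type cells. Hoxd13 had 1.28, 1.64 and 1.35 RPKM, against 0.278, and Hoxb13 1.68, 1.80 and 2.46 RPKM, against 0.708. Hoxc13 (1.28, 1.35 and 1.80, against 0.508) and Hoxb9 (1.17, 1.18 and 1.33, against 0.384) lay above 1 RPKM in each mutant library too. Hoxa10 and Hoxd10 stayed under 1 RPKM, while Hoxb1, Hoxc11 and Hoxc12 were below 0.1 in all 4 libraries. Hoxd1, Hoxd13, Hoxb13 and Hoxa10 are named here after their values were seen.

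**Figure D5:**
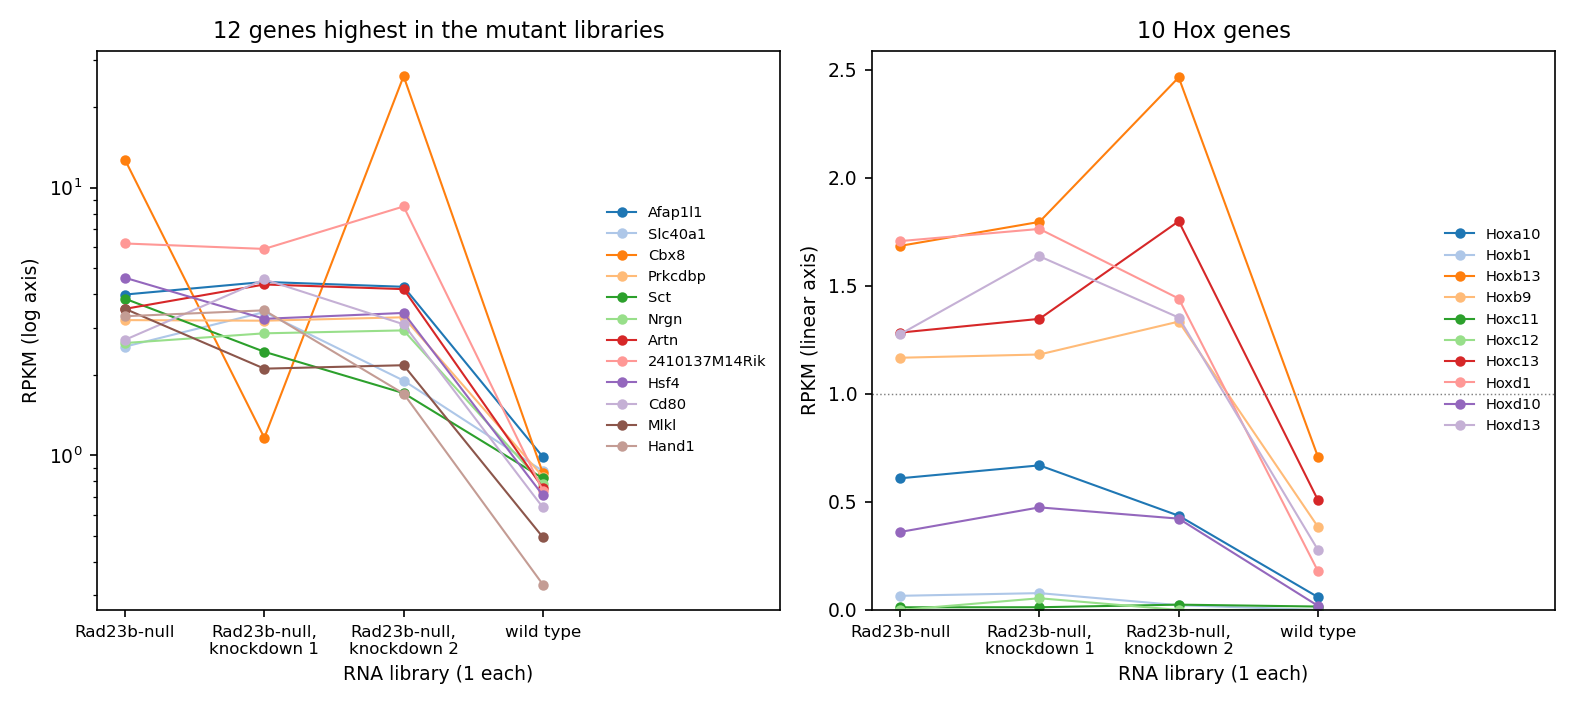
RPKM in the 4 RNA libraries, the 3 mutants left and wild type right, for the 12 marked genes with coordinates of their own named for the highest mutant values (left, log axis) and for the 10 marked Hox genes with coordinates of their own (right, linear axis; dotted line at 1 RPKM). Lines only join the values of 1 gene; 5 Hox genes exceed 1 RPKM in each mutant library and Cbx8 varies from 1.16 to 26.1 among the mutants.

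A lower value than in wild type was found for 361 of the 1499 marked genes in Rad23b-/-, 410 in KD1 and 396 in KD2 cells. Of all 10513 silent genes, 1950, 2035 and 2062 were lower in the same order. The share of lower genes was thus also larger among marked genes. Zfp521, a zinc finger factor of early neural and mesenchymal cells, had 0.229, 0.307 and 0.261 RPKM in Rad23b-/-, KD1 and KD2 cells, against 0.981 in wild-type cells; its region (chr18:14130927-14131519) had folds of 3.75 and 3.05. Genes at the strongest regions went in both directions. Wnt8a had 0.427, 0.251 and 0.404 RPKM in the mutants, against 0.476 in wild-type cells, and Scn1a 0.0553, 0.0652 and 0.0321, against 0.0896. Hivep2 was higher in each mutant library, with 0.451, 0.405 and 0.588 RPKM, against 0.156.

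Only 19 of the 1589 regions (1.20%, exact interval 0.721 to 1.86) overlapped a region listed for Xpc-/- cells, against 478 of all 38822 shared regions (1.23%). The Xpc-/- list holds 828 regions in all, so few overlaps could occur. Of the 19, 10 lay on chromosome 8, which held 112 of the 1589 regions. The share of the whole Xpc-/- list on chromosome 8 is not given here, so the 10 cannot be read as a trait of the silent-promoter regions. Those with the highest replicate 2 fold were at Has3, a hyaluronan synthase (chr8:109393887-109397138), Col8a2, a collagen chain (chr4:125963629-125964408), Ccdc48, Nol3, an inhibitor of apoptosis, E230001N04Rik and Unc13a, a synaptic vesicle priming protein. The wild-type folds of all 19 in replicate 2 ran from 1.36 to 2.29, with a median of 1.73, against 1.92 for all 1589. In the Xpc-/- list the deposited fold follows IgG over RAD23B reads, while its heading names RAD23B over IgG. Whether RAD23B or IgG reads were called there is therefore unsettled, so an overlap shows only that the region was listed.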

How the data were processed

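Each RAD23B library had 1 deposited list of regions called against IgG in mm9 coordinates; Partek is named in the submitters' processing notes, and no source used here states the caller settings. Per the file headers, the lists hold counts of RAD23B and IgG reads in each region, the authors' scaled fold (a ratio) and p-value, and the highest read pile-up as a maximum and as deposited RPM. Maximum over RPM gave depths of 109.3 M and 62.5 M reads for the wild-type replicates. The replicate 2 headings name replicate 1 libraries, though the values differ.

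Expression tables came from TopHat2 2.0.6, Cufflinks 2.0.2 and Cuffdiff, per the submitters' processing notes, as RPKM the authors scaled separately for each mutant, with deposited p-values. RPKM of exactly 1 (13889 wild-type values) was read as 0. Lines naming no gene (72 of 36658, 0.00144% of RPKM) were left out. RNA read totals are unknown. Except where stated, wild-type values and ranges are as scaled with the Rad23b-/- library. Counts of higher, lower and 2-fold genes in KD1 and KD2 cells used the wild-type library as scaled with each knockdown.

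Overlap meant at least 1 bp. Scripts ran under Python 3.11.15 (pandas 2.3.3, numpy 2.4.6) with figures from matplotlib 3.10.9; shares have exact Clopper-Pearson 95% intervals (scipy 1.17.1), covering counting error only. No test was run: each RNA group has 1 library, and RAD23B against IgG reads in the 2 ChIP replicates is the contrast on which the regions were called and selected. Nothing says whether the ChIP replicates came from separate cultures. Region overlap and counting were tested on simulated data. Members, gene lists, thresholds and settings were chosen with earlier results of these data known. Named genes were the 15 highest and 5 lowest regions by replicate 2 fold, those beside the limits, up to 6 per list by that fold, the 8 highest in each mutant library, and those with most genes, most regions or an Xpc-/- overlap. A comparison of CpG content over the set was void for lack of matched promoters. A result that needs an item withheld for evaluation is not reported here.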

Additional observations from a re-analysis of the deposited data

How the results depend on the processing

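Of 46 recomputed values, 37 stayed within the limits set for them and 9 moved. The number of regions was 2390 without RAD23B replicate 2, against 1589 with it, and lay between 1184 (genes with own coordinates only) and 2163 (silent limit at 2 RPKM) under the other settings; replicate 1 supplies the regions and could not be left out. The marked share of silent genes was 12.7% within 500 bp and 2.58% among genes at 0 RPKM, against 14.3%. At 2 RPKM in place of 1, 49, 31 and 39 marked genes passed in Rad23b-/-, KD1 and KD2 cells, against 251, 200 and 211. With mutant values rescaled to the median of expressed genes, 311, 250 and 260 marked genes reached 1 RPKM. With a pseudocount of 0.1 the 2-fold counts were 354, 273 and 288 of 1499, against 11.7%, 9.30% and 9.29% of all silent genes. Pseudocount choice thus decides the 2-fold counts. No paired analysis was possible because no result comes from a test; RAD23B over IgG within each replicate is the contrast that chose the regions, and the RNA groups have 1 library each. Low reads and RPKM limit single genes.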
